A study of Mus musculus with 18 samples.

Results

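Integrins are the receptors through which cells of the vessel wall hold the extracellular matrix, and the focal adhesion core is the set of cytoplasmic proteins that tie them to actin. A set of 34 mouse genes was examined, which holds 26 integrin subunits (18 alpha and 8 beta) and 8 genes of the focal adhesion core. The rule picks the genes by name and uses no measured value, although the set was drawn up with earlier results of these data known, and all 34 were found among the 54281 genes of the deposited table. Of these, 32 had enough counts to be tested, and the other two were at the limit of detection.

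RNA came from whole descending aortas of male C57BL/6 mice, and the samples hold all layers of the wall. The groups were 6 HGPS mice at 2 mo (64 to 75 d old), 6 WT mice at 2 mo (62 to 95 d) and 6 WT mice at 24 mo (609 to 762 d). The HGPS mice are labelled LMNAG609G and carry the progeria mutation at the endogenous Lmna locus, so that every cell that uses the gene can make progerin, a truncated Lamin A. The labels do not give zygosity, the study describes its HGPS mice as homozygous for the mutation, and no HGPS mice at 24 mo were included, so mutation and age cannot be crossed. The comparison of HGPS with 2-mo WT asks what the mutation changed at the same labelled age, and that of 24-mo with 2-mo WT asks what normal aging changed. Ages in days varied within the labels. Replicate 6 of 2-mo WT was 95 d old and replicate 3 of 24-mo WT was 609 d old. These comparisons share the 2-mo WT mice, and values are therefore given side by side.

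An integrin is a pair of an alpha and a beta subunit, and the pair decides which matrix protein or cell surface protein is bound. The beta subunit Itgb1 pairs with most of the alpha subunits of the wall, Itgav joins several beta subunits, and Itgb2 and Itgb7 are subunits of white blood cells. Talin and kindlin bind the tails of beta subunits and switch the receptor on, and focal adhesion kinase, integrin-linked kinase, paxillin, parvin and zyxin build the plaque through which smooth muscle cells sense tension.

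Expression is given as CPM, the estimated count of a gene relative to the library total after TMM normalization. Totals were 12413229 to 21016752 counts in 2-mo WT, 13622602 to 19871697 in 24-mo WT and 17838351 to 30844775 in HGPS mice. A gene is said to have risen or fallen only where the quasi-likelihood test of edgeR gave an adjusted p (Benjamini-Hochberg over all 15210 tested genes) of less than 0.05, and changes are log2 fold changes with their standard error (SE). Lmna itself was at 340 to 486 CPM in 2-mo WT, 340 to 539 CPM in 24-mo WT and 445 to 653 CPM in HGPS aortas. These gene-level counts do not separate the progerin transcript from that of Lamin A, so they do not check the genotype. In whole aorta, fewer cells of a type and less RNA per cell cannot be told apart, which holds for every difference given here.

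Promoter windows (250 bases before and 50 after the annotated start, RefSeq, GRCm38.p6) were available for 22 members in 25 windows. The windows of 4 members are shown: Itga8 as the most abundant subunit, Itgam and Itgax as the myeloid subunits that rose, and Fermt2 because its window, among those of the plaque genes that fell, held a CArG box. Fermt2 had the smallest of the plaque falls, and the windows of Tln1 and Zyx, which fell further, held no CArG box. The Itga8 window lies at chr2:12301895-12302194 (minus strand) and that of Fermt2 at chr14:45530016-45530315 (minus strand). The Itgam window lies at chr7:128062390-128062689 (plus strand) and that of Itgax at chr7:128129300-128129599 (plus strand). Capitals mark a CArG box, the element bound by serum response factor in smooth muscle genes, or GAGGAA on either strand, the core letters of sites for the myeloid factor PU.1.
Itga8: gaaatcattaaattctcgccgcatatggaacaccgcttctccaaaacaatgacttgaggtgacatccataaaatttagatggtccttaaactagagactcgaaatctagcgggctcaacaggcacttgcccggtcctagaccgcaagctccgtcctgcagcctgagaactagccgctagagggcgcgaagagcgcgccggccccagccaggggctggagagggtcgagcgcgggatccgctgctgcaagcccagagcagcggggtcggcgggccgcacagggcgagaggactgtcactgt
Fermt2: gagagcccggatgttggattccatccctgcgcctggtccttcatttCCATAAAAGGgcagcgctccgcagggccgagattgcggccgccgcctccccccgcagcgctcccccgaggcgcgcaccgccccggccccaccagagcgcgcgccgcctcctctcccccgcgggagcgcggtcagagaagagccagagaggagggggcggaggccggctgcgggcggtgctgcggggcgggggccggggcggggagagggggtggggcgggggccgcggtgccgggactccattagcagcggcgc
Itgam: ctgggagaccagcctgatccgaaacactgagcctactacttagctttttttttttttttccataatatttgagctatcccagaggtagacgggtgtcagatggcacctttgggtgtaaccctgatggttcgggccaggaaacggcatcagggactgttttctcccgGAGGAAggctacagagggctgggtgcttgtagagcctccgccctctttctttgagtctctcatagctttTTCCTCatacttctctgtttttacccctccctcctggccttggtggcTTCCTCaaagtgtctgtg
Itgax: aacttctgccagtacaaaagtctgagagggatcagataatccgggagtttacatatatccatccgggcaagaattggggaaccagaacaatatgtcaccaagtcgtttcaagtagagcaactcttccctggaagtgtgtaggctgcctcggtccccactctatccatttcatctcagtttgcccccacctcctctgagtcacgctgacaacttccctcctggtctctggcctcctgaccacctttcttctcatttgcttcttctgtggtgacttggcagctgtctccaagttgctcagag
A CArG box stood in 1.63% of all 32851 windows of the table and in 2 of the 25 member windows, those of Fermt2 (204 bases upstream of the start) and of an alternative start of Itgb6. GAGGAA on either strand stood in 28.3% of all windows and in 10 of the 25 member windows, with 3 matches in the Itgam window and none in that of Itgax. The Itga8 window held neither motif. These are matches of letters in short windows and do not show binding.

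The wall of the 2-mo WT aorta was dominated by few subunits. Levels between genes were compared as CPM per kb of annotated exon, and for each gene the mean of 6 mice is given. In 2-mo WT aortas Itga8 stood first at 917 (lowest to highest mouse 814 to 971), followed by Itgb1 at 547 (495 to 569), Itgb5 at 243 (208 to 261) and Itga9 at 159 (143 to 169) CPM per kb, and the ranges of these 4 did not overlap with their neighbours. Itga8 pairs with Itgb1 to bind nephronectin and fibronectin, Itgb5 pairs with Itgav to bind vitronectin, and Itga9 pairs with Itgb1 to bind tenascin and osteopontin. Tln1 (120) and Ilk (114) followed and overlapped with each other, as did Fermt2 (71.7) and Zyx (68.6), the genes of kindlin-2 and zyxin. Of the subunits of white blood cells, Itgb2 at 2.89 and Itgam at 2.72 CPM per kb stood among the middle ranks, and Itgax at 0.119, Itgal at 0.117 and Itgae at 0.0376 CPM per kb were close to the bottom. Itgb6, a subunit of epithelium, had 46 counts in all 18 mice and Itgad, a leukocyte subunit, had 3, and neither was tested.

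**Figure D1:**
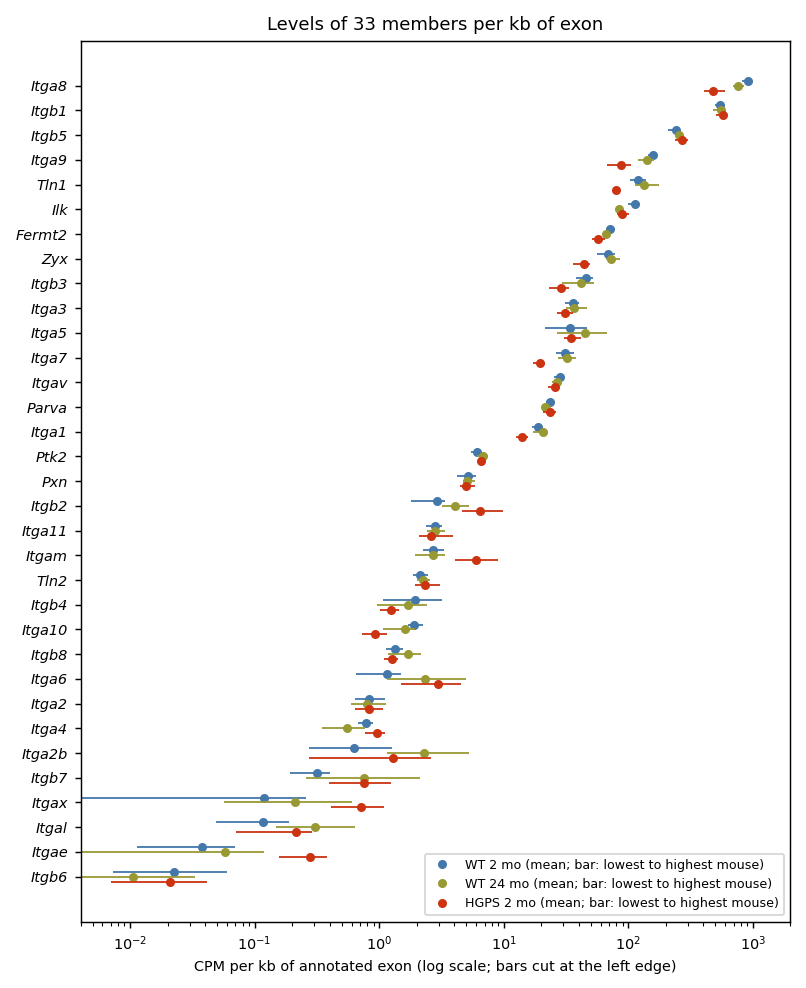
Mean CPM per kb of annotated exon for 33 members (Itgad left out) in 2-mo WT, 24-mo WT and 2-mo HGPS aortas on a log axis, with bars from the lowest to the highest of 6 mice, ordered by the 2-mo WT mean. Itga8 is above Itgb1 in both WT groups, and in HGPS its points lie at 482 against 573 CPM per kb for Itgb1.

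In HGPS aortas the order at the top changed. Itgb1 was at 573 (505 to 612) and Itga8 at 482 (408 to 592) CPM per kb, and their ranges overlapped. In 24-mo WT aortas Itga8 was still first at 764 (687 to 852), apart from Itgb1 at 554 (483 to 601). The first 3 ranks in each group were the same when levels were taken per kb of the longest coding transcript.

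Between HGPS and 2-mo WT aortas, Itga1, Itga7, Itga8, Itga9, Itga10, Itgb3, Itgb4, Tln1, Zyx, Ilk and Fermt2 fell, and Itga6, Itgam, Itgax, Itgae, Itgb2 and Itgb7 rose. Of the 32 tested members, 17 passed the test (53.1%), 6 higher and 11 lower in HGPS, against 43.2% of all tested genes (22% higher and 21.2% lower). At this threshold the share was not far above the background of a comparison in which much of the transcriptome differed. The stricter call that the study used required a 1.5-fold change at an adjusted p of less than 0.001. It was passed by 10 of the 32 tested members (4 higher and 6 lower). This share was larger than the 9.5% of all tested genes (5.27% higher and 4.23% lower). In 13 of the 32 the 6 HGPS mice did not overlap with the 6 2-mo WT mice, also a larger share than the 21.9% of all tested genes. The set was drawn up with earlier results of these data known, so no conclusion is drawn from these shares. The median log2 fold change was -0.03 over the members and 0.00 over all tested genes.

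**Figure D2:**
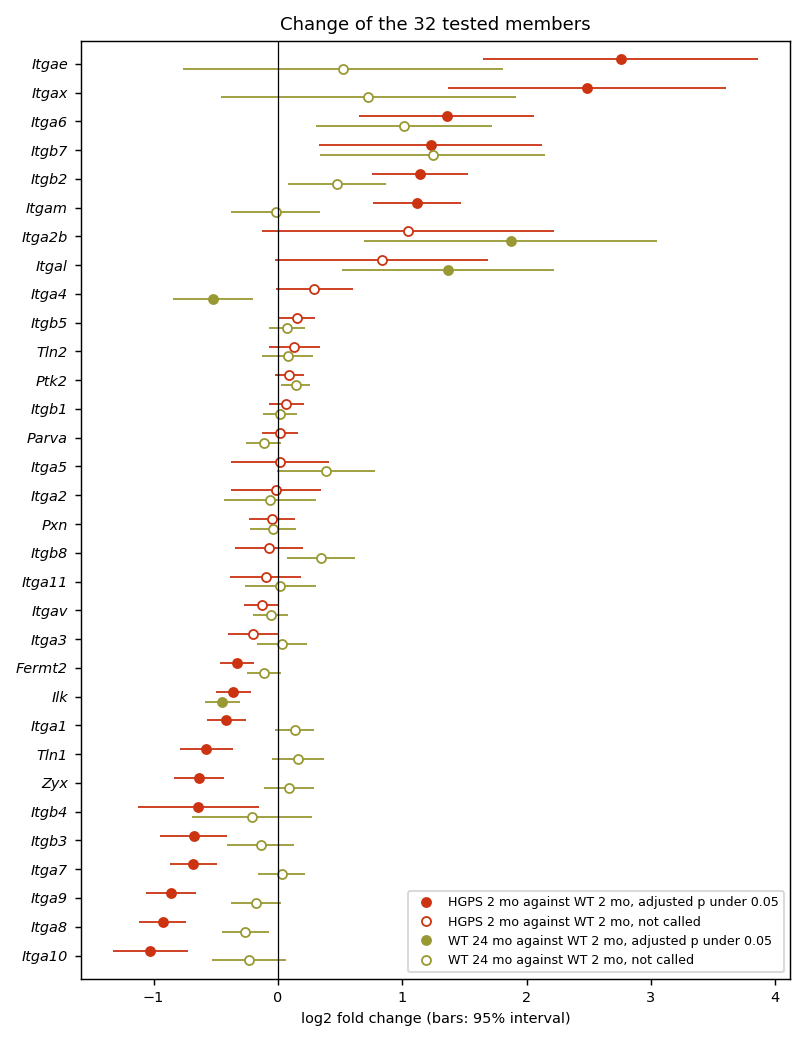
Log2 fold changes of the 32 tested members with 95% intervals, for HGPS against 2-mo WT (red) and 24-mo WT against 2-mo WT (olive), 6 mice a group, with filled points at an adjusted p under 0.05. Red points are filled at both ends of the order, from Itga10 at -1.03 to Itgae at 2.76, and olive points are filled for Ilk, Itga4, Itgal and Itga2b.

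Among the alpha subunits that bind RGD motifs, Itga8 fell and its relatives Itga5 and Itgav did not pass the test. Itga8 was at 5998 to 7152 CPM (median 6852) in 2-mo WT, 5063 to 6281 CPM (median 5640) in 24-mo WT and 3004 to 4365 CPM (median 3398) in HGPS aortas. Every HGPS mouse lay below every WT mouse of either age. The log2 fold change against 2-mo WT was -0.93 (SE 0.09, edgeR adjusted p = 3.53e-07), a level 1.90-fold lower. Itgav, the alpha subunit shared by vitronectin receptors, was at 271 to 321 CPM in 2-mo WT and 243 to 299 CPM in HGPS (log2 fold change -0.13, SE 0.07, adjusted p = 0.116). Itga5, the fibronectin receptor subunit, was at 106 to 229 CPM in 2-mo WT and 151 to 206 CPM in HGPS (0.02, SE 0.19, adjusted p = 0.949), with a 95% interval of -0.38 to 0.41.

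Itga9 gave 1103 to 1302 CPM (median 1233) in 2-mo WT, 923 to 1231 CPM (median 1080) in 24-mo WT and 517 to 815 CPM (median 657) in HGPS aortas. It too was lower in every HGPS mouse than in any WT mouse, with a log2 fold change of -0.86 (SE 0.09, adjusted p = 1.57e-06). Itga4, which shares ligands with Itga9 but is best known from white blood cells, was at 9.4 to 12.6 CPM in 2-mo WT and 10.8 to 15.6 CPM in HGPS and did not pass the test (0.29, SE 0.15, adjusted p = 0.113).

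The collagen receptors divided. Itga1, which binds collagen IV and is typical of smooth muscle, was at 316 to 376 CPM (median 350) in 2-mo WT, 317 to 418 CPM (median 400) in 24-mo WT and 232 to 289 CPM (median 262) in HGPS aortas (-0.42, SE 0.07, adjusted p = 0.00018). Itga10, a collagen receptor best known from cartilage, was much scarcer at 8.82 to 11.7 CPM (median 9.56) in 2-mo WT, 5.55 to 10.1 CPM (median 8.47) in 24-mo WT and 3.80 to 6.03 CPM (median 4.47) in HGPS, and had the largest fall of the members (-1.03, SE 0.14, adjusted p = 1.62e-05). For both genes the HGPS mice lay below all 2-mo WT mice. Itga11, a fibroblast receptor for collagen I, was at 12.3 to 16.4 CPM in 2-mo WT and 10.7 to 19.9 CPM in HGPS (-0.10, SE 0.13, adjusted p = 0.59), and Itga2, a collagen receptor of platelets and epithelium, was at 4.54 to 7.90 and 4.53 to 7.64 CPM and did not pass.

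The laminin receptors went different ways. Itga7, the laminin receptor of muscle, was at 214 to 297 CPM (median 257) in 2-mo WT, 222 to 306 CPM (median 260) in 24-mo WT and 140 to 172 CPM (median 160) in HGPS aortas, with no overlap between HGPS and WT (-0.68, SE 0.09, adjusted p = 8.43e-06). Itga6, a laminin receptor of endothelium, nerve and platelets, was at 5.84 to 13.5 CPM (median 10.8) in 2-mo WT, 10.5 to 45 CPM (median 17.6) in 24-mo WT and 13.4 to 40.6 CPM (median 27.9) in HGPS (1.36, SE 0.33, adjusted p = 0.00266). The HGPS mice were widely spread for this gene, and the lowest of them touched the 2-mo WT range. Itga3, the third of the family, was at 179 to 230 CPM in 2-mo WT and 154 to 204 CPM in HGPS (-0.20, SE 0.09, adjusted p = 0.0896).

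Of the beta subunits, Itgb3 and Itgb4 fell, Itgb2 and Itgb7 rose, and the widely shared Itgb1 and Itgb5 did not pass the test. Itgb1 was at 2021 to 2323 CPM (median 2251) in 2-mo WT, 1969 to 2454 CPM (median 2278) in 24-mo WT and 2060 to 2496 CPM (median 2341) in HGPS aortas. The groups overlapped almost wholly, and the log2 fold change was 0.07 (SE 0.07, 95% interval -0.07 to 0.21, adjusted p = 0.431). Itgb5 was at 740 to 928 CPM in 2-mo WT and 845 to 1073 CPM in HGPS (0.15, SE 0.07, adjusted p = 0.0814), and was called in DESeq2 (adjusted p = 0.0481) and without HGPS replicate 2 (adjusted p = 0.0366). Itgb3, which pairs with Itgav in smooth muscle and with Itga2b in platelets, fell from 224 to 308 CPM (median 274) in 2-mo WT to 137 to 199 CPM (median 169) in HGPS, with 172 to 312 CPM (median 260) in 24-mo WT (-0.68, SE 0.13, adjusted p = 0.000308). Itgb4, the partner of Itga6 in epithelium and nerve sheaths, was at 7.58 to 22.4 CPM (median 12.8) in 2-mo WT, 6.72 to 16.9 CPM (median 13.0) in 24-mo WT and 7.12 to 10.2 CPM (median 8.78) in HGPS (-0.64, SE 0.23, adjusted p = 0.0293). Its groups overlapped, and the call was lost without any 1 of 5 mice (HGPS replicates 1, 4 and 6 and 2-mo WT replicates 4 and 5, adjusted p = 0.0505 to 0.102). Itgb8, which with Itgav can release active TGF-beta, was at 12.6 to 17.2 CPM in 2-mo WT and 12.2 to 15.5 CPM in HGPS and did not pass.

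**Figure D3:**
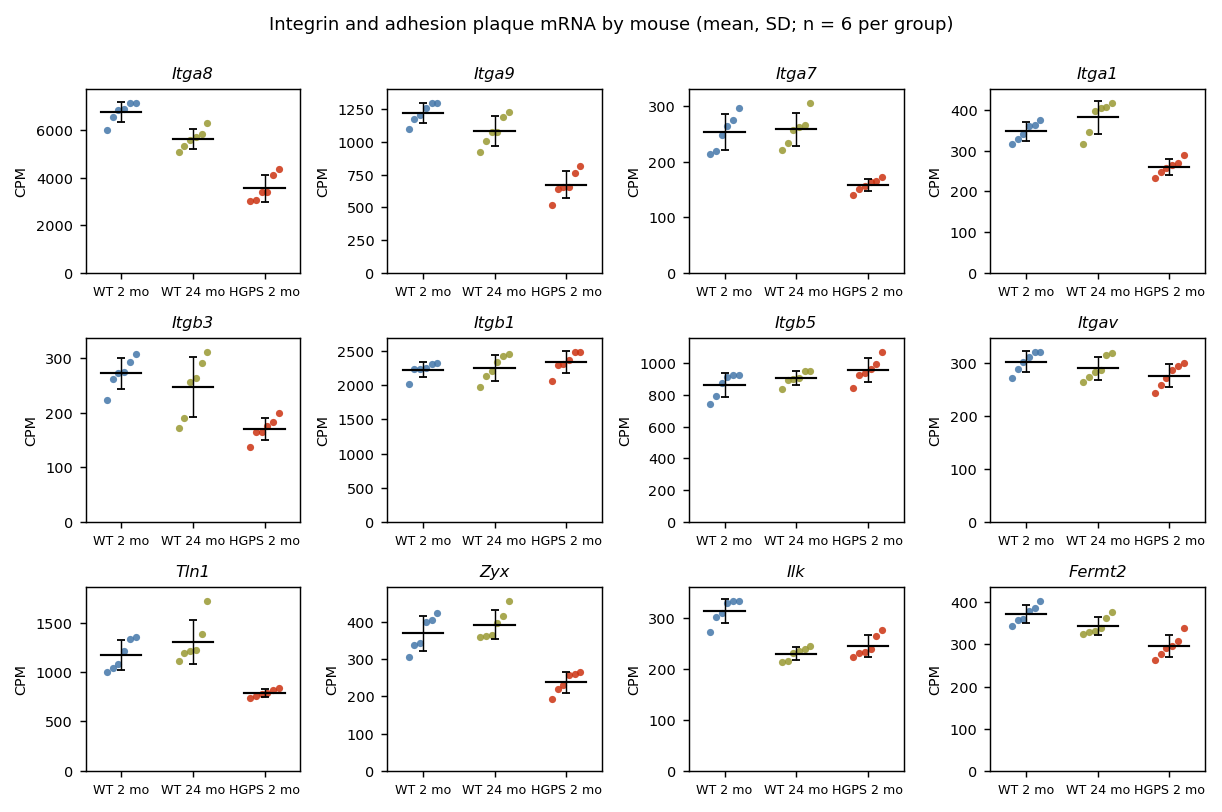
CPM of 12 members in each of 6 mice a group (points), with the group mean and SD (bars), on axes that start at 0. For Itga8, Itga9, Itga7, Itga1, Itgb3, Tln1, Zyx and Fermt2 the HGPS points lie below all 2-mo WT points, and for Itgb1, Itgb5 and Itgav the groups overlap.

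In the focal adhesion core, 4 of 8 genes fell and none rose, beside 21.2% of all tested genes that fell and 22% that rose. Tln1, the gene of talin-1, was at 1003 to 1351 CPM (median 1148) in 2-mo WT, 1117 to 1725 CPM (median 1216) in 24-mo WT and 735 to 843 CPM (median 780) in HGPS aortas (-0.57, SE 0.10, adjusted p = 0.000144). Zyx was at 305 to 425 CPM (median 372), 360 to 458 CPM (median 381) and 194 to 266 CPM (median 244) in the same order (-0.64, SE 0.09, adjusted p = 3.37e-05). The HGPS mice lay below all WT mice of either age for both genes. Fermt2 was at 344 to 404 CPM (median 371) in 2-mo WT, 324 to 376 CPM (median 336) in 24-mo WT and 263 to 338 CPM (median 294) in HGPS (-0.33, SE 0.06, adjusted p = 0.000428). Ilk, the gene of integrin-linked kinase, was at 273 to 334 CPM (median 319) in 2-mo WT and 223 to 276 CPM (median 236) in HGPS (-0.36, SE 0.07, adjusted p = 0.000301). Of these falls only that of Zyx was over 1.5-fold, and the Ilk ranges touched.

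The other plaque genes gave no call between HGPS and 2-mo WT. Ptk2, the gene of focal adhesion kinase, was at 64.9 to 77.0 CPM in 2-mo WT and 72.9 to 80.1 CPM in HGPS (0.09, SE 0.06, adjusted p = 0.187), and Pxn, the gene of paxillin, was at 34.7 to 48.8 and 36.6 to 47.8 CPM (-0.05, SE 0.09, adjusted p = 0.68). Tln2, the second talin, was at 34.4 to 45.2 and 35.5 to 56.0 CPM (0.13, SE 0.10, adjusted p = 0.287), and Parva, which binds Ilk, was at 223 to 258 and 211 to 268 CPM (0.02, SE 0.07, adjusted p = 0.855). The 95% intervals of these 4 genes lay between -0.23 and 0.34.

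Because subunits work in pairs, levels were also set against each other within each mouse, as ratios of CPM per kb that do not depend on the scaling between libraries. The Itga8 to Itgb1 ratio was 1.62 to 1.71 (median 1.69) in 2-mo WT, 1.19 to 1.51 (median 1.43) in 24-mo WT and 0.702 to 0.969 (median 0.864) in HGPS mice. The 3 groups did not overlap, so the 24-mo WT mice lay between the other two. The Itga9 to Itgb1 ratio was 0.277 to 0.308, 0.209 to 0.321 and 0.116 to 0.173 in the same order, and here HGPS was apart from both WT groups, which overlapped. The same held for Itga7 to Itgb1 (0.0481 to 0.0668 in 2-mo WT and 0.0283 to 0.0421 in HGPS) and Itga1 to Itgb1 (0.0322 to 0.0357 and 0.0230 to 0.0254), whereas the Itga5 to Itgb1 ratios overlapped in all groups. Itgb3 to Itgav was 1.27 to 1.86 in 2-mo WT and 0.965 to 1.26 in HGPS, and Itgb5 to Itgav was 7.45 to 9.16 and 8.93 to 11.7. Itga8 made up 73.2 to 76.0% of the summed alpha subunits per kb in 2-mo WT, 67.6 to 74.3% in 24-mo WT and 63.9 to 71.0% in HGPS. The ratios were chosen after the levels were seen and are given without a test.

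Within the plaque, Tln1 was 46.5 to 63.9 times as high as Tln2 per kb in 2-mo WT, 53.1 to 69.3 times in 24-mo WT and 27.5 to 41.2 times in HGPS mice. Zyx to Pxn was 12 to 14.2 in 2-mo WT, 13.1 to 16.4 in 24-mo WT and 7.94 to 10.02 in HGPS mice. For both ratios HGPS was apart from both WT groups, which overlapped.

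Of the subunits of white blood cells, Itgam, Itgax, Itgae, Itgb2 and Itgb7 rose in HGPS, whereas Itgal and Itga4 did not pass and Itgad was not tested. Itgam, the alpha subunit of Mac-1 on macrophages and neutrophils, was at 11.3 to 16.7 CPM (median 13.5) in 2-mo WT, 9.66 to 16.8 CPM (median 13.4) in 24-mo WT and 20.3 to 45.2 CPM (median 27.8) in HGPS aortas (1.12, SE 0.17, adjusted p = 3.35e-05). Its partner Itgb2 was at 5.51 to 10.3 CPM (median 9.45), 9.66 to 16.0 CPM (median 12) and 14.2 to 30.3 CPM (median 18.1) in the same order (1.15, SE 0.18, adjusted p = 6.43e-05). For Itgam every HGPS mouse was above every WT mouse, and for Itgb2 above every 2-mo WT mouse. Itgax, the CD11c subunit of macrophages and dendritic cells, went from 0 to 1.24 CPM (median 0.503) in 2-mo WT to 1.96 to 5.27 CPM (median 3.32) in HGPS, with 0.272 to 2.89 CPM (median 0.764) in 24-mo WT (2.49, SE 0.53, adjusted p = 0.000899). Itgae, the CD103 subunit of resident T cells and some dendritic cells, went from 0.0516 to 0.321 CPM (median 0.147) to 0.713 to 1.76 CPM (median 1.32), with 0 to 0.544 CPM (median 0.281) in 24-mo WT (2.76, SE 0.52, adjusted p = 0.000327). Itgb7, which pairs with Itgae and Itga4, was at 0.533 to 1.12 CPM (median 0.927) in 2-mo WT, 0.713 to 5.85 CPM (median 1.56) in 24-mo WT and 1.09 to 3.47 CPM (median 1.92) in HGPS (1.23, SE 0.42, adjusted p = 0.0236). Its groups overlapped, and the call was lost without HGPS replicate 6 (adjusted p = 0.0647) or 2-mo WT replicate 2 (adjusted p = 0.0524).

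Itgae, Itgax and Itgb7 rest on few reads, with 214, 619 and 577 counts in all 18 mice, so their fold changes are imprecise. The count filter asks for 10 counts in 6 mice. No 2-mo WT mouse reached 10 counts of Itgae and every HGPS mouse did, so Itgae met the filter through the HGPS mice. Its fold change is therefore measured from a level near the limit of detection, although its call also held with no count filter. Itgal, the alpha subunit of LFA-1 on lymphocytes, was at 0.324 to 1.24 CPM in 2-mo WT and 0.468 to 1.91 CPM in HGPS (0.83, SE 0.40, adjusted p = 0.101). Itga2b, the platelet subunit that pairs with Itgb3, was at 1.5 to 6.86 and 1.5 to 14.3 CPM (1.05, SE 0.55, adjusted p = 0.135). Of the 4 tested leukocyte alpha subunits, 3 rose (Itgae among them) and Itgal did not pass, beside 22% of all tested genes that rose. The Itgam to Itgb2 ratio per kb overlapped in all groups, at 0.781 to 1.27 in 2-mo WT, 0.596 to 0.814 in 24-mo WT and 0.799 to 1.22 in HGPS mice.

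**Figure D4:**
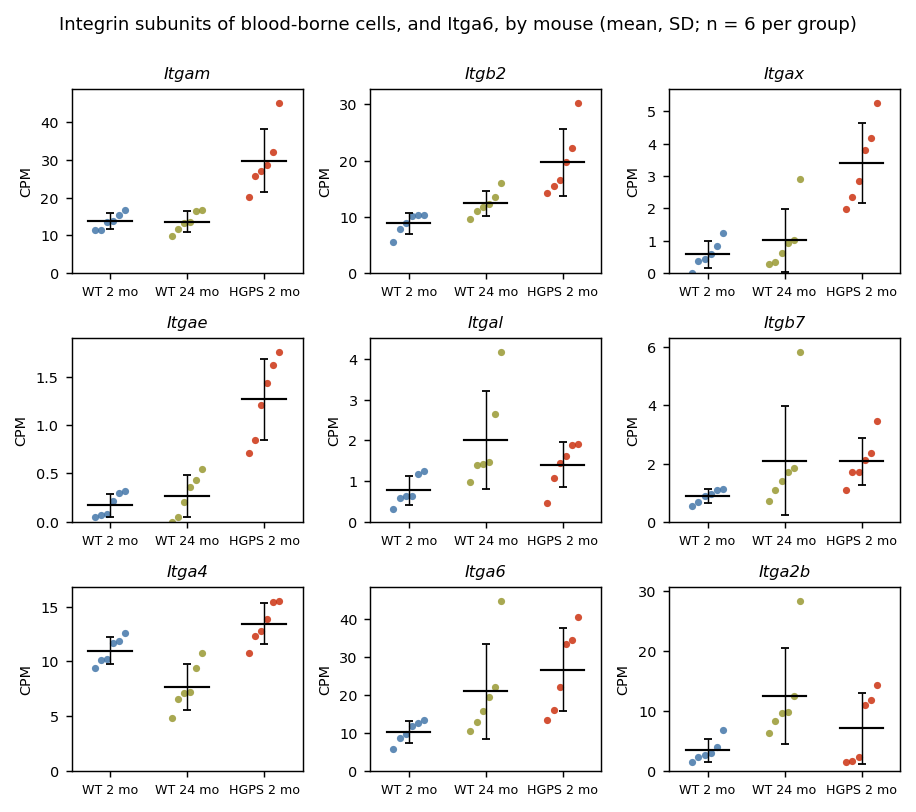
CPM of 9 members in each of 6 mice a group (points), with the group mean and SD (bars), on axes that start at 0. The HGPS points of Itgam, Itgb2, Itgax and Itgae lie above all 2-mo WT points, while Itga2b, Itga6 and Itgb7 are spread among mice of the same group.

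Markers of cell types moved with these genes, and were followed with lists of named markers. Of 6 smooth muscle markers, 5 fell in HGPS against 2-mo WT and Tagln did not pass. Their summed level was 29298 to 37753 CPM in 2-mo WT, 30228 to 34432 CPM in 24-mo WT and 19378 to 27161 CPM in HGPS aortas, apart as for Itga8. Of 12 macrophage markers, 11 rose and Mertk did not pass, and their sum was 632 to 900, 600 to 1199 and 1079 to 1695 CPM in the same order. Of 6 fibroblast markers 4 fell, and of 7 endothelial markers Kdr and Robo4 rose and none fell. All 8 brown fat markers and 5 of 6 white fat markers rose, with brown fat sums of 108 to 601 CPM in 2-mo WT and 459 to 1702 CPM in HGPS, and 6 of 6 cell cycle genes rose. None of 3 tested neutrophil markers, 4 B cell markers or 7 platelet markers passed. Of the lists with fewer tested markers, T and NK cells gave 1 rise among 2, dendritic cells 1 rise and 1 fall among 3, skeletal muscle 1 rise and 1 fall among 3, chondrocytes 3 rises among 4, and epithelium and mesothelium 1 fall among 4. No marker of any list was at 0 in all mice. The lowest level of any smooth muscle marker in any aorta was 266 CPM, for Smtn. The part of these cell types in the member changes was not tested.

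**Figure D5:**
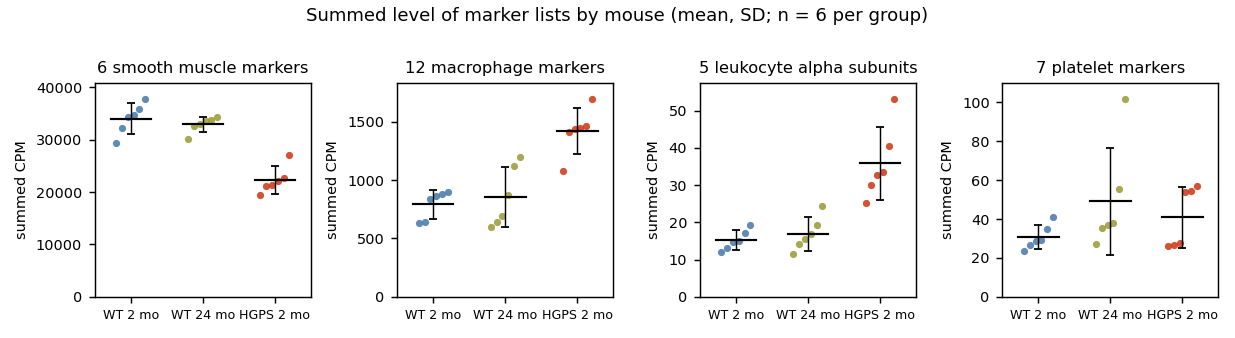
Summed CPM of 6 smooth muscle markers, 12 macrophage markers, 5 leukocyte alpha subunits and 7 platelet markers in each of 6 mice a group (points), with the group mean and SD (bars), on axes that start at 0. The HGPS mice lie below all WT mice for smooth muscle markers, at 19378 to 27161 CPM, and above all 2-mo WT mice for macrophage markers and leukocyte alpha subunits.

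With the macrophage marker score, the mean log2 CPM of the 12 markers, as a term of the fit, 8 of the 32 members and 16% of all tested genes were called in HGPS against 2-mo WT. Itga8 (-0.84, adjusted p = 0.000909), Itga9 (-0.67, adjusted p = 0.00518), Itga7, Itga10, Zyx, Ilk, Itgb4 and Itga6 still passed. Itgam (0.41, adjusted p = 0.139), Itgb2 (0.63, adjusted p = 0.103), Itgax (0.92, adjusted p = 0.427), Itgae (1.93) and Itgb7 (0.73) did not, nor did Itgb3 (-0.16), Itga1 (-0.22), Tln1 (-0.38) and Fermt2 (-0.25). With brown fat and skeletal muscle scores in the fit, 12 members and 21.1% of all tested genes were called. Itga6 was at 0.99 (adjusted p = 0.185) and lost its call. So did Itgae (1.96, adjusted p = 0.0538), Itgax (2.29, adjusted p = 0.0593), Itgb7 (0.65, adjusted p = 0.507), Itgb4 (-0.66, adjusted p = 0.192) and Fermt2 (-0.26, adjusted p = 0.0572). Itgb5 was called as higher (0.32, adjusted p = 0.0186). With the smooth muscle score, an alternative chosen after seeing the data, 0.256% of all tested genes and 0 members were called by edgeR, 5 of them at an unadjusted p under 0.05, and Itga8 was at -0.59 (adjusted p = 0.342). Smooth muscle marker levels did not overlap between HGPS and WT mice, so genotype and marker level cannot be told apart. The macrophage score did not overlap between 2-mo WT (4.92 to 5.48) and HGPS mice (5.71 to 6.38) either. Its fit therefore cannot separate genotype from marker level in this comparison, for members, other plaque genes or ligands. Brown fat scores overlapped only in part between 2-mo WT (1.01 to 4.86) and HGPS mice (4.42 to 6.59). The fit with them separates genotype from marker level only weakly.

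Few members passed between 24-mo and 2-mo WT aortas. Of the 32 tested members 4 passed (12.5%), 2 higher and 2 lower at 24 mo, against 11.7% of all tested genes (6.29% higher and 5.38% lower). The share was close to the background. No member passed the stricter call in edgeR or DESeq2, against 2% of all tested genes (1.28% higher and 0.717% lower), and 10 members had an unadjusted p under 0.05 in edgeR. Ilk was the member whose groups did not overlap, which held for 6.28% of all tested genes. It was at 213 to 244 CPM (median 233) in 24-mo WT and 273 to 334 CPM in 2-mo WT (-0.45, SE 0.07, adjusted p = 0.000137). This fall stood beside that of -0.36 in HGPS, and HGPS and 24-mo WT overlapped for this gene (0.09, SE 0.07, adjusted p = 0.277). Ilk overlaps Taf10 and Rrp8 on the other strand, and whether the counting used strand is not stated.

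Itga4 was at 4.85 to 10.8 CPM (median 7.18) in 24-mo WT and 9.4 to 12.6 CPM (median 11) in 2-mo WT (-0.52, SE 0.15, adjusted p = 0.0294). Itga2b was at 6.25 to 28.5 CPM (median 9.76) against 1.5 to 6.86 CPM (median 2.80) (1.87, SE 0.55, adjusted p = 0.032), and Itgal at 0.970 to 4.19 CPM (median 1.45) against 0.324 to 1.24 CPM (median 0.642) (1.37, SE 0.40, adjusted p = 0.0306). These 3 calls were near the threshold. Leaving out 1 mouse ended the Itga4 call for 7 of the 12 WT mice, the Itga2b call for 6 and the Itgal call for 6. Without replicate 5 of the 2-mo WT mice 1 member was called, and without any 1 of replicates 1 to 4 of that group 2 were called. In these fits 9.24 to 9.89% of all tested genes were called.

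Apart from Ilk, the members that fell in HGPS did not pass with age. Itga8 was 1.2-fold lower at 24 mo (-0.26, SE 0.09, adjusted p = 0.0594), close to the threshold, and passed in DESeq2 (adjusted p = 0.0277) and in a fit of the 2 WT groups alone (adjusted p = 0.0243). Itga9 was at -0.17 (SE 0.09, adjusted p = 0.259). Itgb3 was at -0.14 (SE 0.13, adjusted p = 0.547), Zyx at 0.09 (SE 0.09, adjusted p = 0.616), Tln1 at 0.16 (SE 0.10, adjusted p = 0.338) and Itga1 at 0.13 (SE 0.07, adjusted p = 0.263). Of those that rose in HGPS, Itga6 was at 1.02 (SE 0.33, adjusted p = 0.0522), Itgb7 at 1.24 (SE 0.42, adjusted p = 0.0637) and Itgb2 at 0.48 (SE 0.18, adjusted p = 0.103). DESeq2 called Itga6 (adjusted p = 0.0364) and Itgb7 (adjusted p = 0.0263) with age, and Itga6 was also called without any 1 of 6 mice. Itgb1 was at 0.02 (SE 0.07, adjusted p = 0.905), and Itgb8 at 0.35 (SE 0.13, adjusted p = 0.087). None of the 6 smooth muscle markers and 1 of the 12 macrophage markers passed with age.

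HGPS and 24-mo WT aortas were also compared directly. Of the 32 tested members 16 passed (50%), 5 higher and 11 lower in HGPS, against 47.3% of all tested genes (23.8% higher and 23.6% lower), and 9 did not overlap, against 22.2%. With the stricter call 8 passed (2 higher and 6 lower), against 12.1% of all tested genes (6.02% higher and 6.11% lower). Lower were Itga8 (-0.67, SE 0.09, adjusted p = 7.02e-06), Itga9 (-0.68), Itga7 (-0.71), Itga10 (-0.80), Itga1 (-0.55), Itgb3 (-0.54), Tln1 (-0.73), Zyx (-0.72, SE 0.09, adjusted p = 5.55e-06) and Fermt2 (-0.22). Itgb8, which had not passed against 2-mo WT, was at 13.0 to 23.8 CPM (median 18.5) in 24-mo WT and 12.2 to 15.5 CPM (median 13.9) in HGPS (-0.42, SE 0.13, adjusted p = 0.0107). Itga3 was at 182 to 267 CPM (median 204) and 154 to 204 CPM (median 179) (-0.24, SE 0.09, adjusted p = 0.0461), a call that was lost without any 1 of 10 mice. Higher were Itga4 (0.81, SE 0.15, adjusted p = 0.00019), Itgam (1.13, SE 0.17, adjusted p = 1.89e-05), Itgb2 (0.67), Itgax (1.76) and Itgae (2.23). The Itga4 groups did not overlap but touched. The highest 24-mo WT mouse was at 0.7709 and the lowest HGPS mouse at 0.7713 CPM per kb.

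Mice of the same group differed for Itga2b and Itga6. In HGPS replicates 1 to 6, Itga2b was at 2.24, 11.8, 11, 1.5, 1.67 and 14.3 CPM and Itga6 at 22.2, 33.6, 34.7, 16.0, 13.4 and 40.6 CPM. The higher values of both genes came from replicates 2, 3 and 6. In the same mice the summed platelet markers were at 26.4, 53.7, 56.9, 26.2, 27.5 and 54.2 CPM, and the summed Schwann cell markers at 17.1, 22.2, 26.8, 14.1, 12.9 and 24.5 CPM. Brown fat markers summed to 773, 1702, 1362, 459, 508 and 929 CPM, and white fat markers to 1844, 2166, 2090, 809, 875 and 2969 CPM. In 24-mo WT, replicate 5 had the highest Itga2b (28.5 CPM), Itga6 (45 CPM) and platelet marker sum (102 CPM). The Schwann cell sum of this mouse was 19.6 CPM, against 16.0 to 24.1 CPM in the other mice of the group. Its brown fat sum was 144 CPM, against 119 to 379 CPM. None of the 7 platelet markers passed in any of the 3 comparisons, and of the 4 tested Schwann cell markers 2 rose in HGPS and 3 rose at 24 mo against 2-mo WT. The highest Itgal (4.19 CPM), Itgb7 (5.85 CPM) and Itgax (2.89 CPM) of the 24-mo WT mice came from replicate 6, which had the highest T and NK cell marker sum (20.1 CPM against 1.70 to 3.59 CPM in the other mice of the group). The part of platelets, nerve, fat or lymphocytes in these values was not tested.

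A list of 60 other plaque genes was followed in the same way, and 59 were tested. Between HGPS and 2-mo WT, 8 of these 59 rose and 22 fell, beside 22% of all tested genes that were higher and 21.2% that were lower. Their median log2 fold change was -0.05. Among called genes whose mean was 100 counts or more, the largest falls were those of Kank2, a talin-binding protein at the rim of adhesions (-0.79, SE 0.08, adjusted p = 4.97e-07), Tgfb1i1, the paxillin relative Hic-5 of smooth muscle (-0.75, SE 0.09), and Pdlim7, a PDZ and LIM protein on actin (-0.74, SE 0.07). Kank2 was at 306 to 360 CPM in 2-mo WT and 171 to 194 CPM in HGPS, with no overlap. The largest rises were those of Fermt3, the kindlin of blood cells (0.79, SE 0.23, adjusted p = 0.0103), Palld, the actin cross-linker palladin (0.68, SE 0.10), and Ptk2b, the kinase Pyk2 (0.57, SE 0.19). The calls of Fermt3 (0.46, adjusted p = 0.434) and Ptk2b (0.14, adjusted p = 0.773) were lost with the macrophage score, and also with brown fat and skeletal muscle scores (adjusted p = 0.0724 and 0.25). With age 6 of the 59 rose and 2 fell, beside 6.29% and 5.38% of all tested genes. The largest rises were those of Pak1, a kinase that turns over adhesions (0.87, SE 0.11, adjusted p = 1.94e-05), Ptk2b (0.76, SE 0.19) and Palld (0.59, SE 0.10), and Arhgef7 fell (-0.21, SE 0.06, adjusted p = 0.0328), a call that was lost without any 1 of 7 mice. The other fall was that of Evl, an actin regulator of the Ena/VASP family, which averaged 86.6 counts and is named after its values were seen. It went from 4.13 to 5.61 CPM in 2-mo WT to 1.93 to 3.63 CPM in 24-mo WT, with no overlap (-0.90, SE 0.15, adjusted p = 0.000481), and was at 4.57 to 6.44 CPM in HGPS. Palld was at 50.6 to 68.6 CPM in 2-mo WT, 74.5 to 106 CPM in 24-mo WT and 79.4 to 116 CPM in HGPS, so the mice of both other groups were above the 2-mo WT mice.

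Of 48 ligands of these integrins, 41 were tested, and 10 rose and 11 fell between HGPS and 2-mo WT, beside 22% and 21.2% of all tested genes. Spp1, the gene of osteopontin and a ligand of Itga9, Itga4 and Itgav receptors, went from 0.489 to 1.36 CPM in 2-mo WT to 2.34 to 7.87 CPM in 24-mo WT and 14.7 to 43.8 CPM in HGPS (5.12, SE 0.37, adjusted p = 1.88e-08 for HGPS, and 2.69, SE 0.39, adjusted p = 9.49e-05 for age). Thbs1, the gene of thrombospondin-1 (1.41, SE 0.32, adjusted p = 0.00145), and Lamb1, a laminin chain (0.94, SE 0.20, adjusted p = 0.00079), followed. Both calls were lost with the macrophage score (Thbs1 at 1.10, adjusted p = 0.175, and Lamb1 at 0.84, adjusted p = 0.0805), and that of Lamb1 also with brown fat and skeletal muscle scores (0.55, adjusted p = 0.194). The largest falls were those of the laminin chains Lama3 (-0.73, SE 0.19), Lamb2 (-0.72, SE 0.10) and Lama2 (-0.63, SE 0.12), which are ligands of Itga3, Itga6 and Itga7 receptors. The Lama2 call was lost with the macrophage score (-0.36, adjusted p = 0.193) and the Lama3 call with brown fat and skeletal muscle scores (-0.69, adjusted p = 0.107). Lamb2, a chain of the muscle basement membrane, was at 1002 to 1511 CPM in 2-mo WT, 1242 to 1731 CPM in 24-mo WT and 693 to 841 CPM in HGPS, below all WT mice.

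With age, 3 of the 41 tested ligands rose and 11 fell, beside 6.29% and 5.38% of all tested genes. The falls were led by fibrillar collagens, with Col3a1 at 6069 to 9038 CPM in 2-mo WT and 1935 to 2846 CPM in 24-mo WT (-1.66, SE 0.15, adjusted p = 2.6e-07), Col1a2 at -0.95 (SE 0.14) and Col1a1 at -0.92 (SE 0.28, adjusted p = 0.037), a call that was lost without any 1 of 8 mice. Fn1, the gene of fibronectin and a ligand of Itga5, Itga8 and Itgav receptors, rose from 1521 to 2178 CPM to 2721 to 4777 CPM (0.84, SE 0.14, adjusted p = 0.000355), and was at 1615 to 2623 CPM in HGPS. Npnt, the gene of nephronectin and the preferred ligand of the Itga8 receptor, was looked up after the Itga8 values were seen. It was at 822 to 1079 CPM in 2-mo WT, 533 to 766 CPM in 24-mo WT and 486 to 700 CPM in HGPS, and fell in both comparisons (-0.62, SE 0.10, adjusted p = 8.67e-05 in HGPS, and -0.61, SE 0.10, adjusted p = 0.000396 with age), with no overlap with 2-mo WT in either.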

How the data were processed

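RNA-seq libraries of 18 aortas were analysed as counts per gene that the authors had deposited without normalization. Per their methods, reads were assigned with salmon to GENCODE M23 transcripts of GRCm38.p6 and summed per gene with tximport, and DESeq2 was used for testing. The deposited counts are whole numbers, and whether they were rounded is not stated. The submitters' processing notes also name Bowtie 0.12.2, mm10 and GRCm38, with no role given. Counts without molecular identifiers are not independent molecules.

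Gene symbols, positions and exon lengths came from GENCODE M21, which holds 54107 of the 54281 identifiers, and promoter windows came from RefSeq. A gene was tested if 6 or more mice had 10 or more of its counts. Libraries were scaled by TMM, and the quasi-likelihood test of edgeR (version 4.0.16 under R 4.3.3) was run on the 3 groups in 1 fit with 15 residual degrees of freedom. P-values were adjusted over all genes tested. The SE was obtained from each log2 fold change and its F statistic. Marker scores are mean log2 CPM (prior count 2). The fit was tested on simulated data. Mice were grouped by their labels. The mice are separate animals, and no 2 libraries of a group agreed within sampling noise (lowest chi-square per degree of freedom 8.09 over 45 pairs).

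The members, the lists of plaque genes, ligands and cell type markers, and the rules were chosen with earlier results of these data known. All members are accounted for, with values in every group for called members and Itgb1. From the lists, the 3 largest rises and falls against 2-mo WT are named, taken from called genes that average 100 counts or more. Npnt, Evl and the ratios were added after values were seen. Alternatives were DESeq2 1.42.0, RLE scaling, no count filter, the replicate number as a block, 2 groups alone, thinning to the smallest total of 12413229 counts, marker scores as covariates and leaving out each mouse.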

Additional observations from a re-analysis of the deposited data

Results flagged for a closer look

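In 8 of the 96 sets of 6 mice (32 tested members in 3 groups), 1 mouse stood apart from the others of its group by more than the critical gap of Dixon's test for 6 values, where chance gives about 1 set in 20. In 24-mo WT, Itga2b was at 28.5 CPM in replicate 5 against 6.25 to 12.4 CPM in the other mice, and Itga6 was at 45 CPM in the same mouse against 10.5 to 22.2 CPM. Replicate 6 of that group had Itgb7 at 5.85 CPM against 0.713 to 1.85 CPM and Itgax at 2.89 CPM against 0.272 to 1.00 CPM, and replicate 1 had Pxn at 47.7 CPM against 38.4 to 41.8 CPM. In 2-mo WT, Itgb1 was at 2021 CPM in replicate 1 against 2240 to 2323 CPM, and Itga10 was at 11.7 CPM in replicate 3 against 8.82 to 9.83 CPM. In HGPS, Itga11 was at 19.9 CPM in replicate 6 against 10.7 to 13.9 CPM. The platelet and T and NK cell marker sums of these 24-mo WT mice are given in the report, and their part was not tested.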

How the results depend on the processing

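Without marker scores in the fit, 15 of the 17 members called between HGPS and 2-mo WT passed under every alternative (Itgb4 and Itgb7 did not), as did 15 of the 16 called between HGPS and 24-mo WT (Itga3 did not) and 1 of the 4 called with age (Ilk, which also passed with each score). Counts of called members were 15 to 18 between HGPS and 2-mo WT (7 to 11 with the stricter call), 1 to 6 between 24-mo and 2-mo WT (0 with the stricter call) and 15 to 19 between HGPS and 24-mo WT (8 to 10) when each mouse was left out in turn. The shares of all tested genes were 38.5 to 45.6%, 9.24 to 12.2% and 43.7 to 47.5% in the same order, without the stricter call. DESeq2 called 7 members with age, beside 13.7% of all tested genes. In a fit of the 2 groups alone Itga3 (adjusted p = 0.0347) and Itga4 (adjusted p = 0.0377) were also called between HGPS and 2-mo WT. Leaving out mice turned the sign of Itga5 (-0.087 to 0.12) and Parva (-0.012 to 0.051) in HGPS and of Itgb1 with age (-0.0073 to 0.054), none of which had passed.

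With brown fat and skeletal muscle scores, 10 members were called between HGPS and 24-mo WT (0 with the stricter call), beside 23.7% of all tested genes (3.14%). With age 1 was called, beside 7.51%, and 2 passed the stricter call in HGPS against 2-mo WT, beside 1.89%. Zyx with age was at -0.013 in this fit. The brown fat score did not overlap between 24-mo WT (2.45 to 4.37) and HGPS mice (4.42 to 6.59). Group and marker level therefore cannot be separated there. With the macrophage score, 8 members were called in HGPS against 2-mo WT and 8 against 24-mo WT, beside 16% and 24.2% of all tested genes. The stricter call left 1 in each, beside 1.06% and 4.02%. Itga5 (-0.32), Itgav (0.057) and Itgb1 (-0.0029) turned sign against 2-mo WT. With the smooth muscle score, added after seeing the data, 8 members were called with age and 0 in either HGPS comparison, also with the stricter call, with 5 and 6 members at an unadjusted p under 0.05 in edgeR. Of all tested genes, 12.1% were called with age, 0.256% in HGPS against 2-mo WT and 1.39% against 24-mo WT. The sign then turned against 2-mo WT for Itga3 (0.43), Itga6 (-0.66), Itgav (0.18), Itga2b (-2.56), Itgal (-0.35), Itgb4 (0.19), Itgb7 (-0.093), Tln2 (-0.086), Pxn (0.097), Fermt3 (-0.13), Ptk2b (-0.16) and Thbs1 (-0.015), and against 24-mo WT for Itga3 (0.43), Itgax (-0.13) and Itgb2 (-0.26). The cause was not tested. Of the lists, 17 plaque genes and 8 ligands were called in HGPS against 2-mo WT with the macrophage score, in place of 30 and 21. Over all tested genes the share called was 16% in that fit, in place of 43.2%.

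Mice with the same replicate number did not deviate together (2 of 18 correlations over 0.1, range -0.16 to 0.17), so the number is only a name. With it as a block, 16 members were called between HGPS and 2-mo WT, 6 with age and 15 between HGPS and 24-mo WT. The shares of all tested genes were 41.8%, 10.3% and 45.8%. Use of the coding length moved 54 of 102 levels per kb by more than 1 SD. Depth limits Itgae, Itgax, Itgb7 and Itgal most, and Itgad and Itgb6 were below the count filter.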
